A study of Sus scrofa domesticus with 150 samples.

Results

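TBX2, FAM78B and NTNG2 are 3 genes of the 30461 in the count table that were expressed more in the wound center than at the wound edge through most of healing. They were chosen by their symbols, as the 3 named genes that passed an edgeR test of center against edge (adjusted p below 0.05, at least 2-fold) on the most days, so the center and edge values below describe the choice and are not tested. The data came from 6 female domestic pigs of Yorkshire-mix breed, animals 1323 to 1328, each with 12 round full-thickness excisions of 2 cm on the back, lettered A to L, under Telfa Clear and Tegaderm dressings and with no other treatment. Whole excised skin of day 0 gave 1 sample per animal, and biopsies of 3.5 mm from the edge and the center of 72 wounds gave the other 144 samples. Animals 1323, 1324 and 1325 were sampled on days 1, 3, 5, 7, 11, 15 and 21, and animals 1326, 1327 and 1328 on days 2, 4, 6, 9, 13, 16 and 19. Each state, meaning 1 day and 1 location, held 6 samples up to day 13, from 2 wounds in each of 3 animals, and 3 samples on days 15, 16, 19 and 21. A wound was sampled once and its letter went with the day, so place on the back and time cannot be told apart between days. Each day held only 1 of the 2 sets of animals. A peak on a single day thus cannot be told apart from a difference between the sets.

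All 3 genes passed the test on 11 days. On these days, which run from day 1 to day 16 and leave out day 3, the test called in order of time 12.7%, 8.03%, 1.88%, 3.56%, 1.02%, 3.8%, 5.9%, 8.05%, 4.51%, 5.63% and 3.93% of all tested genes as higher in the center. On days 3, 19 and 21 edgeR called 0 genes (163, 35 and 211 at an unadjusted p under 0.05 and at least 2-fold higher in the center), so no gene of the table was called on more days. The mean log2 difference over the called days was 2.24 for FAM78B, 1.60 for NTNG2 and 1.47 for TBX2. Just outside stood TGM2, GNG2 and NEK6, called on 10 days each with mean differences of 2.48, 1.51 and 1.34.

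TBX2 is a transcription factor of the T-box family that acts mainly as a repressor. It is known from the developing heart, limb and lung and for holding down inhibitors of the cell cycle. NTNG2 encodes netrin-G2, a membrane-anchored relative of the netrins that binds the leucine-rich repeat protein LRRC4 and is known from synapses. FAM78B is a gene with little described function and has a close relative, FAM78A. In the course of healing a wound center fills with granulation tissue, made of fibroblasts, new blood vessels and macrophages, and the epidermis grows in from the edge.

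The table placed TBX2 (ENSSSCG00025039019) at LUXX01048117.1:2392104-2400890 on the minus strand, FAM78B (ENSSSCG00025032011) at LUXX01053029.1:2965807-3098880 on the minus strand and NTNG2 (ENSSSCG00025049090) at LUXX01043970.1:208311-273966 on the plus strand. All are protein-coding, each had 1 row, and no other gene of the table overlapped them. The contig names are those of the table, and the genome build is not given in the sources used here. Total counts ran from 13133379 to 24895572 per sample, and all 3 genes were among the 17916 that passed the filter on low counts. Values are CPM, the counts scaled to the sample's total, compared as log2(1 + CPM). Counts of 3 correspond to 0.121 to 0.228 CPM at these depths. 7 libraries stood apart from the other samples of their state. Of these, the centers of day 2 (1326 L), day 6 (1328 B) and day 9 (1328 E) had 79301, 55947 and 32954 CPM over 9 skeletal muscle genes, and the centers of day 3 (1324 G) and day 11 (1323 C) had 39111 and 31393 CPM over 11 keratinocyte genes. The edge of day 3 (1325 G) had only 108 CPM over the keratinocyte genes, and the edge of day 5 (1325 K) had 35078. TBX2 and FAM78B were lower in each of the 5 center libraries than in every other sample of the state, and NTNG2 was so in 4 of them. The 7 libraries were a fixed list, and the rule behind it is not given here. RNA of muscle or epidermis was not confined to them. Among the other libraries, an edge had 41108 CPM over the muscle genes. A day 2 center and a day 3 center had 24739 and 20501 CPM over these, and a day 1 center had 23887 CPM over the keratinocyte genes. Bulk samples do not separate the number of cells of a type from the RNA per cell.

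TBX2 was expressed in skin before wounding, at 9.62 to 14.01 CPM with a median of 12.5 CPM. On day 1 the center had 32.3 to 62.5 CPM with a median of 46.1 CPM, and the edge 4.66 to 14.1 CPM with a median of 11.4 CPM. All 6 centers were above all day 0 samples by the day after wounding, while 2 of the 6 edges were below the lowest of them. The center reached its highest level on day 6, with 68.7 to 201 CPM and a median of 134 CPM. The edge had its highest median on the same day, 47.4 CPM, and its widest spread, 10.5 to 103 CPM. On day 21 the 3 centers had 19.3, 34.8 and 36.1 CPM and the 3 edges 13.4, 21.0 and 21.7 CPM. The centers were still above day 0 then, and the lowest edge lay within the day 0 range.

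FAM78B was close to absent from unwounded skin. The 6 day 0 samples held 35 counts in all, 0 in animal 1324 and 10 at most, and reached 0.539 CPM with a median of 0.346 CPM. On day 1 the center had 4.14 to 10.9 CPM with a median of 7.86 CPM, and the edge 0 to 2.34 CPM with a median of 0.334 CPM. The center was thus above day 0 in every sample while 4 of the 6 edges were not. The edge came up later, with a median of 1.35 CPM on day 2 and 4.46 CPM on day 3, when all 6 edges exceeded day 0. The center was highest on day 6, at 14.1 to 38.3 CPM with a median of 36.4 CPM, and on day 7, at 24.8 to 34.5 CPM with a median of 31.6 CPM. On day 21 the 3 centers had 6.18, 7.32 and 11.3 CPM and the 3 edges 2.29, 4.84 and 7.70 CPM, all above the highest day 0 sample.

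NTNG2 was the latest of the 3 genes to reach its highest level, and in the center its median FPKM was the lowest of the 3 on all 14 days. Day 0 skin had 0 to 1.58 CPM with a median of 0.431 CPM, from 0 to 30 counts per sample. On day 1 the center had 1.64 to 3.36 CPM with a median of 2.36 CPM, and the edge 0.108 to 1.17 CPM with a median of 0.377 CPM. No edge sample of day 1 exceeded the highest day 0 sample, and all 6 centers did. By median, the center was highest on day 11, at 5.53 to 17.5 CPM with a median of 11.5 CPM. Medians were 11.0 CPM on day 9, 10.7 CPM on day 16 and 9.31 CPM on day 13. The edgeR estimates against day 0 put the centers of day 13 (4.29 ± 0.46, log2, SE) and day 16 (4.19 ± 0.49) above that of day 11 (4.13 ± 0.46), within their SE. On day 21 the 3 centers had 3.19, 4.45 and 4.75 CPM and the 3 edges 3.06, 3.39 and 3.67 CPM, so the groups overlapped and all lay above day 0.

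**Figure D1:**
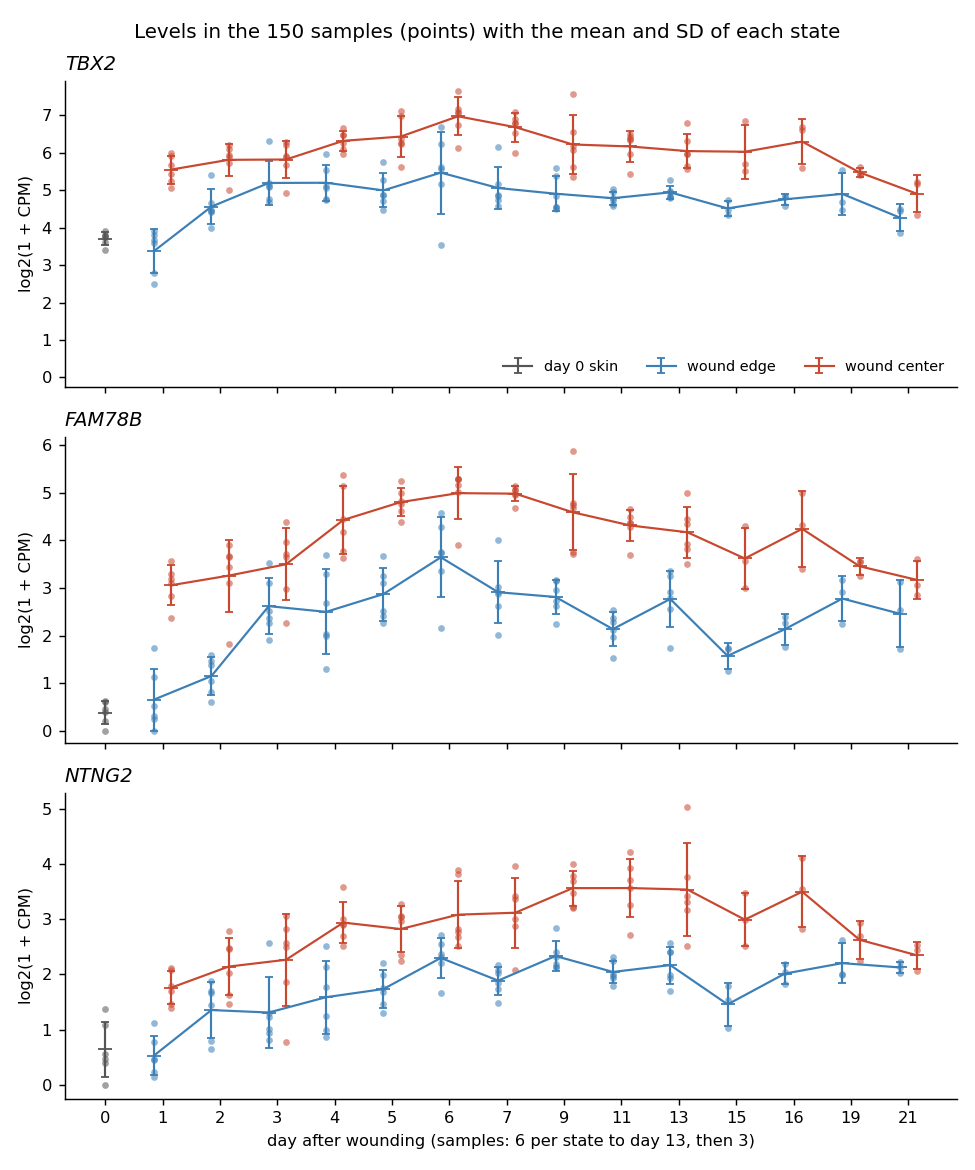
Levels of TBX2, FAM78B and NTNG2 as log2(1 + CPM) against the day after wounding, for day 0 skin (grey), the wound edge (blue) and the wound center (red); points are samples and bars are the mean ± SD of a state. Mean levels in the center peak on day 6 for TBX2 and FAM78B and on day 11 for NTNG2, and the mean levels of center and edge come close on days 19 and 21, and for TBX2 also on day 3. Days 3, 19 and 21 took no part in the choice of the genes.

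Over the 29 states, the mean log2 level was highest in the centers of days 6, 7 and 5 for TBX2 and FAM78B, and in the centers of days 11, 9 and 13 for NTNG2. At the bottom were the day 1 edge, day 0 skin and the day 21 edge for TBX2, and day 0 skin and the edges of days 1 and 2 for FAM78B. For NTNG2 they were the day 1 edge, day 0 skin and the day 3 edge. Neighbours in these orders mostly did not differ beyond their spread. Of 28 pairs of neighbours, only 1 for TBX2 (day 21 edge over day 0), 2 for FAM78B (day 16 edge over day 15 edge, and the latter over day 2 edge) and 1 for NTNG2 (day 3 edge over day 0) differed by more than the larger of the 2 SDs. The deposited FPKM, which allow comparison between genes per length, put TBX2 above FAM78B and FAM78B above NTNG2 in the day 6 center, with medians of 45.9, 16.5 and 2.84 FPKM. In day 0 skin the medians were 4.60 FPKM for TBX2, 0.174 FPKM for FAM78B and 0.219 FPKM for NTNG2.

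Within wounds, the center exceeded the edge for TBX2 in 69 of 72 wounds, for FAM78B in 69 and for NTNG2 in 67. The difference was at least 2-fold on the log2(1 + CPM) scale, which understates that of low genes, in 49 wounds for TBX2, 62 for FAM78B and 36 for NTNG2. Averaged per animal, it was 1.31 ± 0.18 (log2, SD, n = 6 animals) for TBX2, 1.73 ± 0.24 for FAM78B and 1.11 ± 0.15 for NTNG2. It was present in every animal, with a lowest animal mean of 1.02, 1.28 and 0.82. The same measure was 0.34 ± 0.09 for COL1A1 and 0.50 ± 0.08 for LUM, a collagen chain and a matrix proteoglycan made by fibroblasts.

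The difference between center and edge was not the same on all days. It was largest on day 1 for TBX2 (2.18 ± 0.81, SD, n = 6 wounds) and FAM78B (2.40 ± 0.82), where the edge was still near day 0, and on day 15 for NTNG2 (1.53 ± 0.71, n = 3 wounds). On day 3 it was 0.63 ± 0.50 for TBX2, 0.88 ± 1.04 for FAM78B and 0.95 ± 0.80 for NTNG2. On day 19 it was 0.57 ± 0.63, 0.68 ± 0.31 and 0.42 ± 0.70 (n = 3 wounds), and on day 21 it was 0.64 ± 0.72, 0.71 ± 0.86 and 0.22 ± 0.15. At least 2-fold differences were found on days 19 and 21 in 1 wound of 6 for TBX2, 3 for FAM78B and 0 for NTNG2. Days 3, 19 and 21 took no part in the choice of the genes, which rests on calls on the other days. A smaller difference on these 3 days is thus not separate from the choice. The 11 instances with the edge at or above the center fell in 7 wounds, of which wounds F and G of animal 1324 on day 3, wound I of the same animal on day 21 and wound I of animal 1326 on day 19 each held 2. Epidermal RNA was back in the centers on days 19 and 21. On day 3 it was high in the center of wound G of animal 1324, with 39111 CPM over the keratinocyte genes. The other day 3 centers had 11.3 to 2732 CPM. The 11 keratinocyte genes summed to medians of 107 to 418 CPM in the centers of days 1 to 11, then 1533 CPM on day 13, 19801 CPM on day 15, 5597 CPM on day 16, 40020 CPM on day 19 and 46619 CPM on day 21. The part of epidermal RNA in the size of the difference was not tested.

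**Figure D2:**
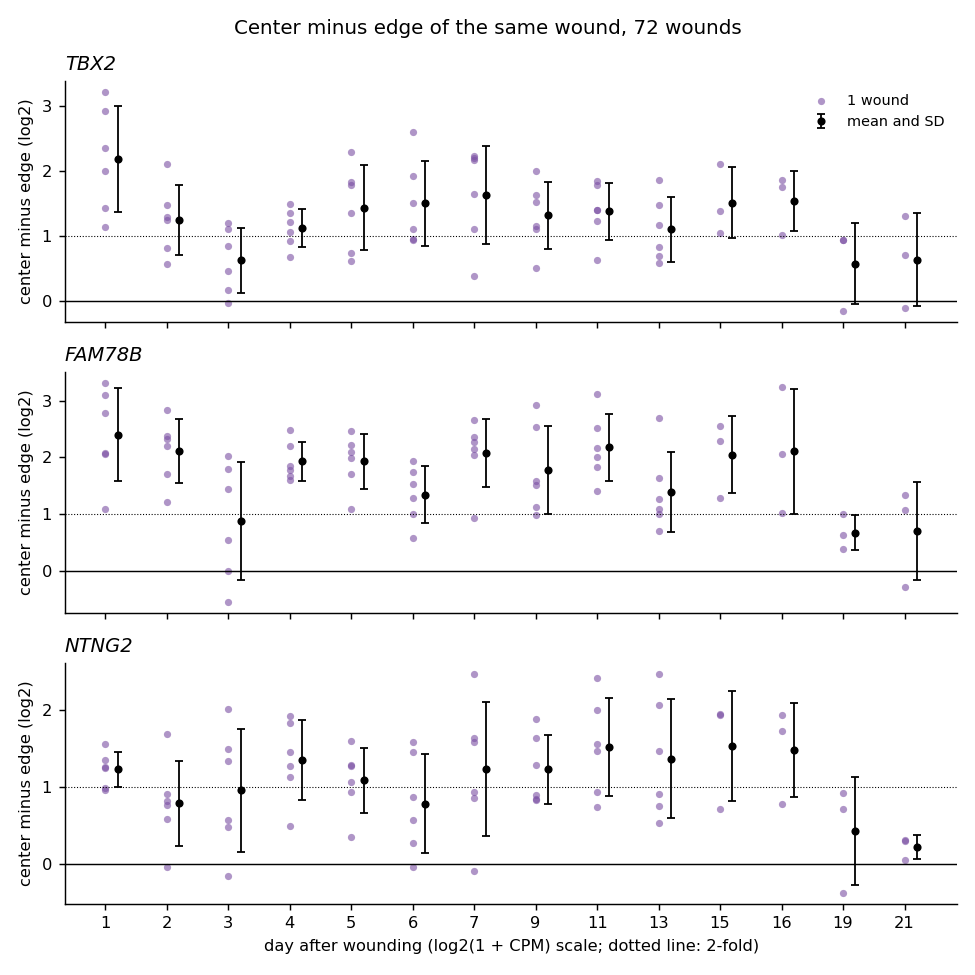
Difference between the center and the edge of the same wound in log2(1 + CPM), by day, for 72 wounds (purple points), with the mean ± SD of each day in black and a dotted line at 2-fold. Most wounds lie above 0, and the day means fall below 1 for all 3 genes on days 3, 19 and 21, which took no part in the choice of the genes.

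The wound, taken as the mean of its edge and center biopsies, was then compared with unwounded skin. Day 0 was whole excised skin, so the sides also differ in the kind of sample. The mean of edge and center over a pair of days was set against day 0, since each pair of days holds all 6 animals as day 0 does. The genes were chosen on the difference between center and edge, not on this mean, but the mean holds the same center values. The p-values against day 0 are thus not fully separate from the choice. All 3 genes were higher than day 0 at all 7 pairs of days (quasi-likelihood test of edgeR, p-values adjusted after Benjamini and Hochberg across the 17916 genes). A call alone is common, since from the first to the last pair 28.5%, 31.1%, 31.8%, 30.8%, 28.1%, 23.5% and 22.3% of all genes were called higher. TBX2 rose by 1.08 ± 0.25 (log2, SE) on days 1 and 2 (adjusted p = 0.000101), by 2.41 ± 0.27 on days 5 and 6 (adjusted p = 1.36e-13) and by 1.46 ± 0.27 on days 19 and 21 (adjusted p = 3.03e-06). Its values on the other pairs of days lay between 1.92 and 2.24.

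The change of FAM78B was the largest of the 3 by this measure at every pair of days. It rose by 2.99 ± 0.45 on days 1 and 2 (adjusted p = 6.70e-09), by 5.63 ± 0.50 on days 5 and 6 (adjusted p = 3.62e-19) and by 4.63 ± 0.49 on days 19 and 21 (adjusted p = 1.73e-14). These fold changes rest on 35 counts in the day 0 samples. NTNG2 rose by 1.16 ± 0.37 on days 1 and 2 (adjusted p = 0.00401), by 3.36 ± 0.41 on days 11 and 13 (adjusted p = 3.01e-12) and by 2.79 ± 0.41 on days 19 and 21 (adjusted p = 6.65e-09). Its first value lost the call when animal 1323 (0.87) or animal 1328 (0.89) was left out.

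Taking 1 value per animal, with each animal's wounds set against its own day 0 sample, gave the same direction in 6 of 6 animals for each gene and each pair of days. The exact permutation of signs, two-sided, gave p = 0.03125 for all 21 comparisons, the smallest that 6 animals allow. The adjusted p was the same. How many of all genes have 6 of 6 animals in the same direction is not given here. The values per animal also hold the centers on which the genes were chosen. On this scale the mean change on days 5 and 6 was 2.26 ± 0.44 (log2, SD, n = 6 animals) for TBX2 and 3.70 ± 0.47 for FAM78B, and on days 11 and 13 it was 2.18 ± 0.52 for NTNG2. The lowest of all 126 animal values was 0.27, for NTNG2 on days 1 and 2.

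**Figure D3:**
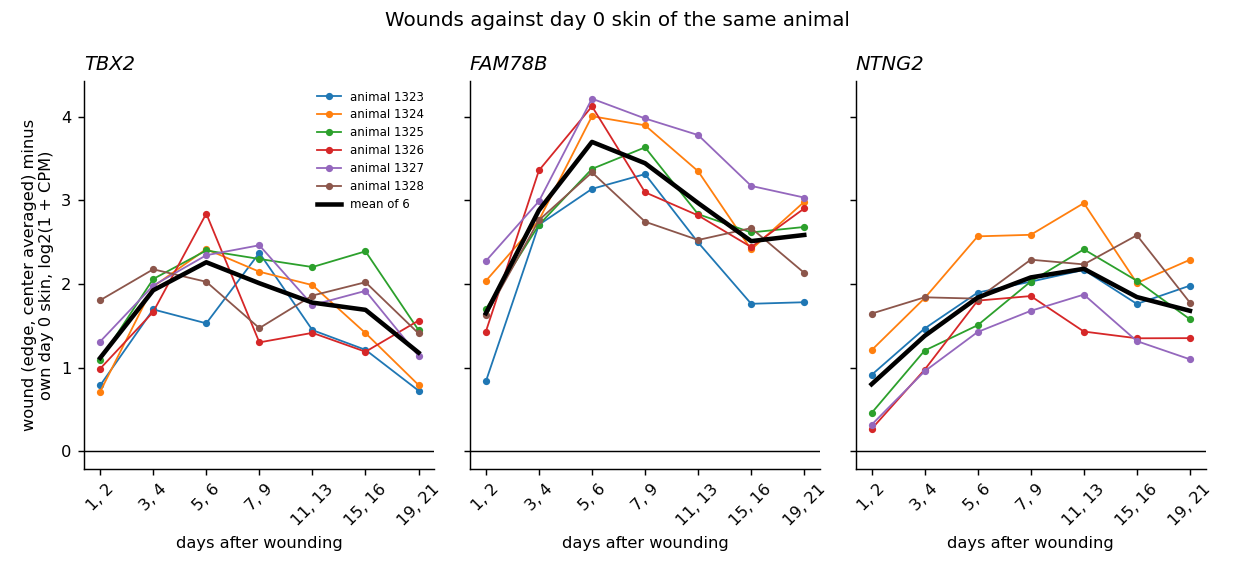
Change of each gene in log2(1 + CPM) from the animal's own day 0 skin to its wounds, edge and center averaged, by pair of days; thin lines are the 6 animals and the black line is their mean. Every line stays above 0, and the mean peaks on days 5 and 6 for TBX2 and FAM78B and on days 11 and 13 for NTNG2.

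Edge and center came up at different times. On days 1 and 2 the edge differed from the animal's day 0 skin by 0.26 ± 0.71 (log2, SD, n = 6 animals) for TBX2, 0.52 ± 0.50 for FAM78B and 0.30 ± 0.56 for NTNG2, against 1.97 ± 0.33, 2.78 ± 0.58 and 1.30 ± 0.60 in the center. By days 5 and 6 the edge differed by 1.52 ± 0.49, 2.88 ± 0.51 and 1.37 ± 0.38. In all, 72 of 72 centers and 65 of 72 edges were above the highest day 0 sample for TBX2, 72 and 67 for FAM78B, and 71 and 54 for NTNG2. The center below it was that of day 3, animal 1324, wound G, which is rich in keratinocyte RNA. From days 5 and 6 to days 11 and 13, with edge and center averaged, TBX2 was lower by 0.48 ± 0.50 and FAM78B by 0.73 ± 0.31, in 6 of 6 animals each, while NTNG2 was higher by 0.34 ± 0.41, in 5 of 6 animals.

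None of the 3 genes had gone back to the level of unwounded skin by days 19 and 21. For FAM78B and NTNG2 all 6 edges and all 6 centers were above the highest day 0 sample, and for TBX2 5 of 6 edges and 6 of 6 centers were. From days 11 and 13 to days 19 and 21, with edge and center averaged, TBX2 fell by 0.53 ± 0.18 (log2, SE, edgeR adjusted p = 0.0188). FAM78B changed by -0.34 ± 0.25 (adjusted p = 0.322) and NTNG2 by -0.57 ± 0.25 (adjusted p = 0.0692), which did not pass. Against all 4 late days, NTNG2 fell by 0.52 ± 0.20 (adjusted p = 0.0454), while TBX2 changed by -0.30 ± 0.15 (adjusted p = 0.124) and FAM78B by -0.44 ± 0.20 (adjusted p = 0.108). Of all genes, 17.3% were called lower in the first of these comparisons and 13.4% in the second. Both late calls were lost when single animals were left out, TBX2 without 1324, 1325, 1327 or 1328 and NTNG2 without any of 1324 to 1328. In the center alone, days 19 and 21 were below days 11 and 13 in 6 of 6 animals for each gene, by 0.92 ± 0.63 (SD) for TBX2, 0.93 ± 0.47 for FAM78B and 1.06 ± 0.50 for NTNG2. At the edge they differed by -0.28 ± 0.51 (lower in 5 of 6 animals), 0.17 ± 0.53 (lower in 2) and 0.06 ± 0.25 (lower in 3). The difference between the 2 locations in this was not tested. The choice of the genes used calls on days 11 and 13 but none on days 19 and 21. A late fall in the center, or in the mean that holds it, is thus not separate from the choice, and neither are its p-values.

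COL1A1 and LUM followed another course. Both were below day 0 on days 1 and 2, as 30.9% of all genes were, when the 3 genes were already above it. By edgeR, the mean of edge and center fell by 1.86 ± 0.23 (log2, SE, adjusted p = 5.14e-12) for COL1A1 and by 1.11 ± 0.22 (adjusted p = 5.65e-06) for LUM. COL1A1 did not differ detectably from day 0 on days 5 and 6 (-0.13 ± 0.25, adjusted p = 0.653), when TBX2 and FAM78B were at their top, and rose by 1.37 ± 0.30 on days 19 and 21 (adjusted p = 5.54e-05). LUM rose by 0.79 ± 0.25 on days 3 and 4 (adjusted p = 0.00396) and by 2.58 ± 0.30 on days 19 and 21 (adjusted p = 7.39e-13). From days 11 and 13 to days 19 and 21, COL1A1 changed by 0.46 ± 0.19 (adjusted p = 0.0570) and LUM by 0.34 ± 0.18 (adjusted p = 0.146), both upward. Over the means of the 29 states, which share day and location, Pearson's r with COL1A1 and LUM was 0.23 and 0.42 for TBX2, 0.35 and 0.54 for FAM78B and 0.60 and 0.73 for NTNG2. Among themselves the 3 genes had r of 0.95 (TBX2 and FAM78B), 0.90 (FAM78B and NTNG2) and 0.85 (TBX2 and NTNG2), given as a description since they were chosen for a shared pattern.

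**Figure D4:**
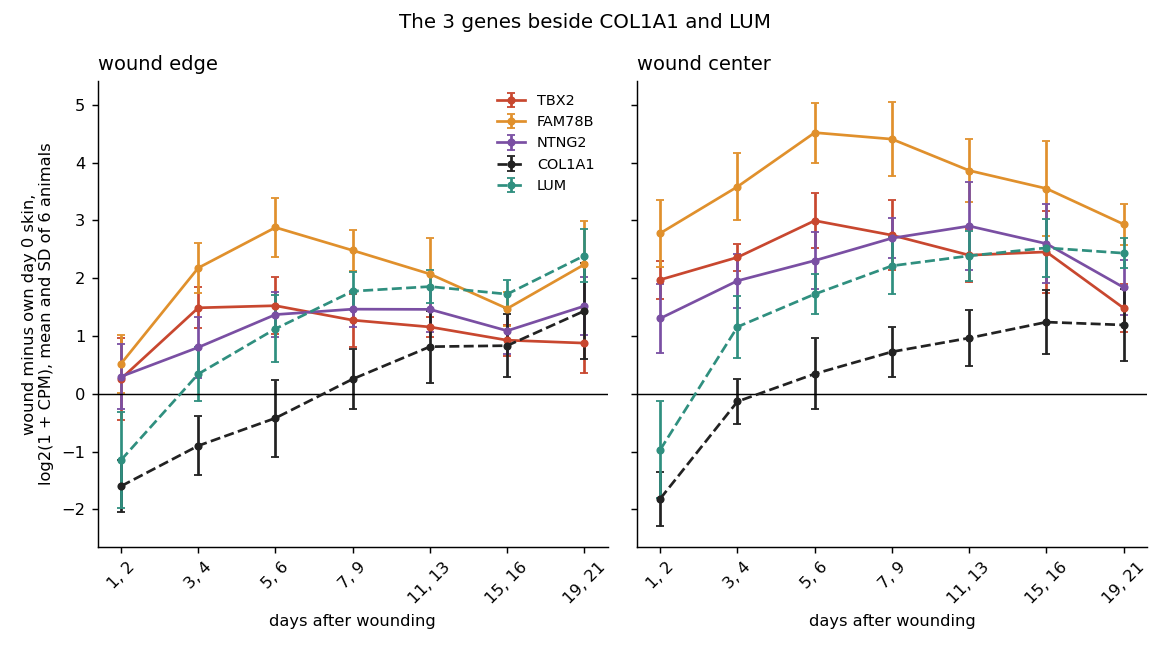
Change from the animal's own day 0 skin in log2(1 + CPM) at the edge and in the center, by pair of days, as the mean ± SD of 6 animals for TBX2, FAM78B, NTNG2 (solid) and COL1A1, LUM (dashed). In the center on days 1 and 2 the 3 genes lie above 0 while COL1A1 (-1.81) and LUM (-0.97) lie below it.

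To ask whether samples of the same state with more fibroblast RNA also had more of the 3 genes, the mean of the state was taken off each value. In the 72 center samples, the deviations of TBX2 went with those of COL1A1 (r = 0.40, rho = 0.40, two-sided permutation test within states, adjusted p over 12 relations = 0.0111 and 0.0167) and LUM (r = 0.37, rho = 0.35, permutation adjusted p = 0.0146 and 0.0353). Those of NTNG2 went with LUM (r = 0.45, rho = 0.35, permutation adjusted p = 0.0111 and 0.0388) but not detectably with COL1A1 (r = 0.23, rho = 0.13, permutation adjusted p = 0.203 and 0.343). For FAM78B r was 0.32 with COL1A1 and 0.33 with LUM, and rho 0.22 with each (permutation adjusted p = 0.0507 for both r and 0.187 for both rho). Without the 2 samples farthest from the median of the fibroblast gene, r was 0.32 and 0.30 for TBX2, 0.17 and 0.22 for FAM78B, and 0.04 and 0.33 for NTNG2. At the edge no relation passed, with r from 0.10 to 0.32, rho from 0.15 to 0.28 and permutation adjusted p from 0.0507 to 0.504 for r.

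These relations in the center rested on few samples. Without the 7 libraries that stood apart, r fell to 0.24 for TBX2 with COL1A1 (permutation adjusted p = 0.249), to 0.19 for TBX2 with LUM (adjusted p = 0.362) and to 0.25 for NTNG2 with LUM (adjusted p = 0.249), and none passed. Leaving out only the day 3 center of animal 1324, wound G, already ended all 3 calls, with r of 0.32, 0.28 and 0.30 (permutation adjusted p = 0.0862 for each). The calls were also lost without all samples of animal 1323, 1324 or 1328, with r from 0.28 to 0.45. Other calls were gained. Without animal 1327, FAM78B passed with COL1A1 (r = 0.48) and LUM (r = 0.47) in the center, and NTNG2 with COL1A1 (r = 0.42). Without animal 1326, FAM78B passed there with COL1A1 (r = 0.37) and LUM (r = 0.39). At the edge, FAM78B passed with COL1A1 without 1326 (r = 0.35) or 1327 (r = 0.41), and TBX2 without 1326 (r = 0.38). The day 3 center of wound G had 18341 CPM over 17 fibroblast genes, against 48517 to 83740 CPM in the other day 3 centers. All animals of a state contribute 2 wounds up to day 13, and the permutations treat wounds as separate samples.

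**Figure D5:**
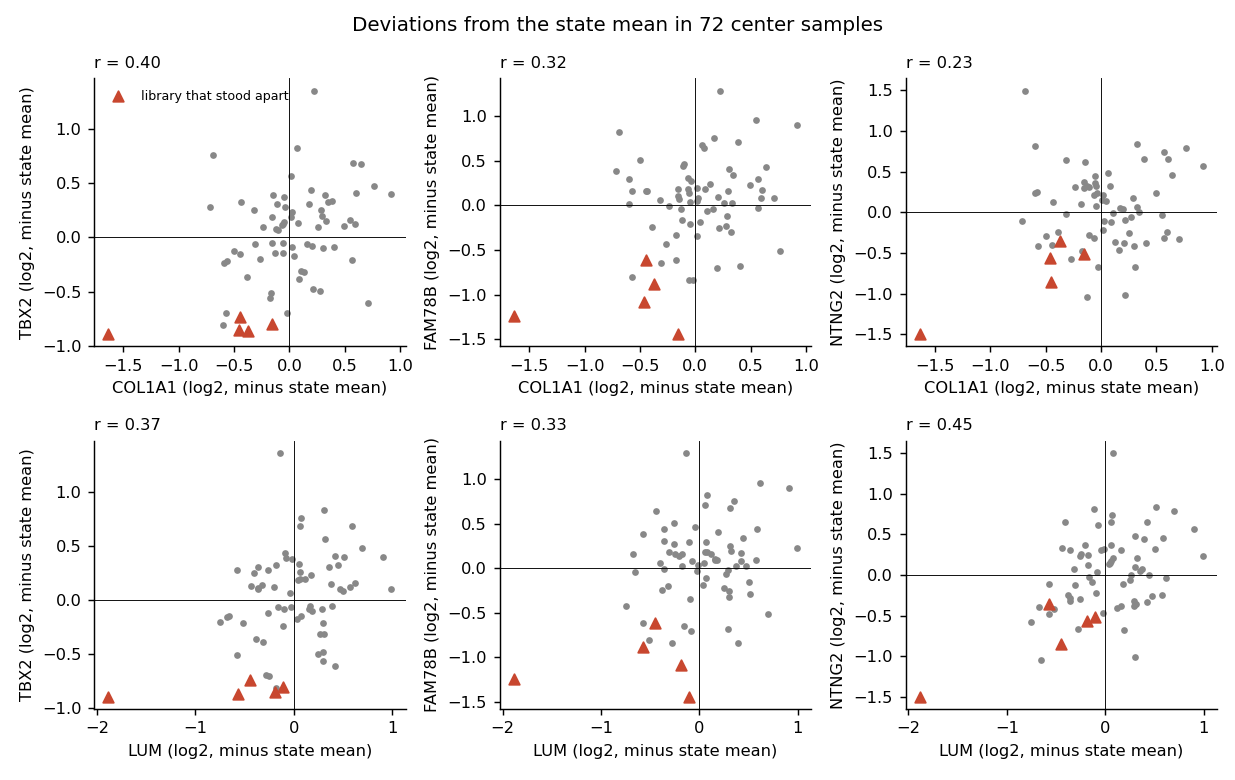
Deviations from the state mean in log2(1 + CPM) in the 72 center samples, for each of the 3 genes (vertical axis) against COL1A1 (top) and LUM (bottom), with Pearson's r above each panel and the 5 center libraries that stood apart as red triangles. The triangles lie in the lower left of each panel, and the library at the far left is the day 3 center of animal 1324, wound G.

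By Pearson's r, but not by rho, the edge and the center of the same wound deviated together for TBX2 (r = 0.35, rho = 0.28, n = 72 wounds, two-sided permutation test within days, adjusted p over 3 genes = 0.0145 and 0.0788) and FAM78B (r = 0.30, rho = 0.21, permutation adjusted p = 0.0246 and 0.167). For NTNG2 r was 0.21 and rho 0.11 (permutation adjusted p = 0.130 and 0.421). Without the 2 wounds farthest from the median in the center, r was 0.30, 0.27 and 0.14. Leaving out the wound with the muscle-rich center of day 6 (1328 B) ended both calls, at r of 0.26 and 0.23 (permutation adjusted p = 0.0862 and 0.120). Leaving out the muscle-rich center of day 2 (1326 L) ended that of FAM78B, at r of 0.28 (permutation adjusted p = 0.0566). Both were also lost without animal 1326, 1327 or 1328, with r from 0.20 to 0.33. The 2 wounds that an animal had on the same day were also compared. Wounds A to F differed from wounds G to L by 0.03 ± 0.22 (log2, SD, n = 6 animals) for TBX2, -0.01 ± 0.25 for FAM78B and 0.07 ± 0.15 for NTNG2, less than the SD over animals (exact permutation of signs, two-sided, adjusted p = 1, 1 and 0.9375).

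The genes whose state means were most like those of TBX2 over the 29 states were MCAM (r = 0.97), a surface protein of endothelium and pericytes, FADS3 (r = 0.96), CD93 (r = 0.96), a receptor of endothelium, GUCY1B1 (r = 0.96), a subunit of the nitric oxide receptor, and CDH5 (r = 0.96), the cadherin of endothelial junctions. The median r of TBX2 with all tested genes was 0.03, which is no test of genes picked as the highest. The state means hold the difference between center and edge on which TBX2, FAM78B and NTNG2 were chosen. Genes higher in the center can thus reach a high r by location alone, and a link to a cell type was not tested. For FAM78B the leading genes were CALU (r = 0.98) and PLOD3 (r = 0.97), a calcium-binding protein and a collagen-modifying enzyme of the endoplasmic reticulum. Next came ZNF697 (r = 0.97) and 2 rows named GOLM1 (r = 0.97 each), a Golgi membrane protein. NTNG2 was most like TTYH2 (r = 0.96), ANGPT1 (r = 0.96), a ligand of the endothelial receptor TEK, EMILIN1 (r = 0.95), a protein of elastic fibers, MEIS3 (r = 0.95) and ADAMTS7 (r = 0.95), a matrix protease.

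With day and location taken out, the lists were different. Over the deviations of all 150 samples the leading genes were IGFBP4 (r = 0.75), TMEM184B (r = 0.74) and SYDE1 (r = 0.72) for TBX2. They were BMP1 (r = 0.77), the protease that trims procollagens, SEC13 (r = 0.74), a coat protein of vesicles leaving the endoplasmic reticulum, and SURF4 (r = 0.73), a cargo receptor of the same route, for FAM78B. For NTNG2 they were GRAMD1A (r = 0.69), NOL4L (r = 0.62) and ARHGEF17 (r = 0.61). The 3 genes also varied together within states, with r of 0.66 for TBX2 and FAM78B, 0.56 for TBX2 and NTNG2 and 0.45 for FAM78B and NTNG2. Of all other tested genes, 30 had a higher r with TBX2 than FAM78B had, and 34 had a higher r with NTNG2 than TBX2 had. These samples share animals and libraries, and the values carry no test.

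The nearest relatives did not all behave alike. Over the mean of 14 days by edgeR, where 33.8% of all genes were higher and 32.5% lower in the center, 4 of the 11 other tested T-box genes were higher and 3 lower. The fit behind this and the center and edge p-values below treats the edge and center of a wound as separate samples. TBX3, the paralog of TBX2, was higher in the center by 1.06 ± 0.09 (log2, SE, adjusted p = 2.29e-20), with median levels of 5.75 CPM at day 0, 8.78 CPM at the edge and 19.8 CPM in the center. TBX18 (0.70), TBX21 (0.72) and EOMES (0.69) were higher too. TBX4, whose gene lies 48501 bases from TBX2 on the same contig and strand, was lower by 2.00 ± 0.17 (adjusted p = 1.63e-20), falling from a median of 5.40 CPM at day 0 to 2.00 CPM at the edge and 0.431 CPM in the center. TBX1, a T-box gene of the pharynx and hair follicle, was lower in the center by 1.02 ± 0.15 (adjusted p = 1.07e-09) at medians of 57.0, 15.8 and 5.53 CPM, and TBX6 by 0.58. TBX5, TBX10, TBX15 and MGA did not pass, and 5 listed genes, TBX19, TBX20, TBX22, TBXT and TBR1, had too few counts to be tested. Against day 0 on days 5 and 6, where 35.2% of all genes were lower, 3 of the 11 rose and 4 fell. TBX3 rose by 1.90 ± 0.27 (adjusted p = 7.08e-10), TBX4 fell by 2.65 ± 0.37 (adjusted p = 3.19e-10) and TBX1 fell by 2.84 ± 0.33 (adjusted p = 3.33e-13).

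FAM78A, the paralog, shared the direction of FAM78B. It was higher in the center by 0.94 ± 0.10 (log2, SE, edgeR adjusted p = 1.45e-14), at medians of 2.02 CPM at day 0, 8.02 CPM at the edge and 15.8 CPM in the center, and it rose by 2.55 ± 0.32 on days 5 and 6 (adjusted p = 1.29e-11). NTNG1, the paralog of NTNG2, was lower in the center by 0.75 ± 0.20 (adjusted p = 0.000438), at medians of 0.934, 0.515 and 0.287 CPM. LRRC4, which binds netrin-G2, was lower by 0.51 ± 0.14 (adjusted p = 0.00103) at medians of 3.74, 2.35 and 1.35 CPM, and LRRC4B by 1.81 ± 0.14 (adjusted p = 9.45e-23) at 16.0, 2.34 and 0.734 CPM. Of the 17 other tested genes of netrins and their partners, 6 were higher and 6 lower in the center, near the shares of all genes (33.8% and 32.5%). The higher ones were NTN1, NTN4, NTN5, UNC5A, UNC5C and PTPRS, and the lower ones NTNG1, LRRC4, LRRC4B, DCC, NEO1 and PTPRF. UNC5A, a netrin receptor, had the largest difference upward (0.94 ± 0.09, adjusted p = 1.01e-18), and PTPRF, a receptor phosphatase, the largest downward (2.83 ± 0.17 lower, adjusted p = 2.65e-31). On days 5 and 6 against day 0, 1 of the 17 rose, UNC5A (2.36 ± 0.27, adjusted p = 1.84e-13), and 10 fell, against 31.8% and 35.2% of all genes.

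Of 8 genes described elsewhere as repressed by TBX2, 6 were found and tested, and 0 were higher and 5 lower in the center, where 32.5% of all genes were lower. CDH1 (E-cadherin) was lower by 4.17 ± 0.33 (log2, SE, edgeR adjusted p = 3.37e-23) and CDKN2B, a cell cycle inhibitor, by 3.16 ± 0.19 (adjusted p = 9.49e-31). Median levels went from 315 CPM at the edge to 2.00 CPM in the center for CDH1 and from 46.2 to 1.94 CPM for CDKN2B. NDRG1 (0.72 lower), GJA1 (0.63 lower) and CDKN1A (0.20 lower, adjusted p = 0.0309) also passed. The median difference over the list was -0.68, against 0.01 for all genes. Against day 0 the number of lower genes was smaller on later days. From the first to the last pair of days 4, 3, 3, 2, 2, 0 and 0 of the 6 were lower, while the share of all genes lower was 30.9%, 32.4%, 35.2%, 32.4%, 30.1%, 25.1% and 24.4%. The median of the list was -1.40 on days 1 and 2, -0.32 on days 5 and 6 and -0.02 on days 15 and 16. CDH1 is at the same time a keratinocyte marker. Its fall went with that of the whole keratinocyte list, of which 11 of 11 tested genes were lower in the center, with a sum of 11.3 to 50560 CPM (median 307 CPM) in the center, 108 to 108277 CPM (median 56170 CPM) at the edge and 36412 to 84196 CPM (median 59119 CPM) at day 0. The part of keratinocyte RNA in these differences was not tested.

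Markers of other cells moved with location as well, in a comparison that called 33.8% of all genes higher and 32.5% lower in the center. Endothelial genes were higher in the center in 10 of 10 cases, with a median difference of 0.76 (log2), among them PECAM1 (0.76 ± 0.05, SE, edgeR adjusted p = 3.07e-27) and CDH5 (0.89 ± 0.06, adjusted p = 2.22e-28). Their sum was 803 to 2614 CPM (median 1526 CPM) in the center, 228 to 1861 CPM (median 863 CPM) at the edge and 365 to 578 CPM (median 491 CPM) at day 0. Macrophage and monocyte genes were higher in 10 of 10 cases, with a median of 0.96, for example CD163 (1.17 ± 0.12, adjusted p = 1.40e-15). Their sum was 546 to 3703 CPM (median 1668 CPM) in the center, 288 to 2361 CPM (median 803 CPM) at the edge and 203 to 384 CPM (median 302 CPM) at day 0. Of 17 fibroblast genes, 15 were higher and 1 lower in the center, with a median of 0.37, and the sum was 16919 to 198820 CPM (median 95314 CPM) in the center, 7485 to 209297 CPM (median 71378 CPM) at the edge and 45957 to 129246 CPM (median 66219 CPM) at day 0. Of 10 smooth muscle and pericyte genes 6 were higher and 3 lower, of 7 neutrophil genes 3 and 3, of 9 skeletal muscle genes 4 and 0, of 6 adipocyte genes 1 and 0, of 8 Schwann cell genes 0 and 5, and of 4 melanocyte genes 1 and 0, several of them near these shares.

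Within states, the mean log2 level of each marker list was set beside the 3 genes. For the endothelial list the r of deviations was 0.44, 0.39 and 0.39 for TBX2, FAM78B and NTNG2 in the 72 centers and 0.46, 0.32 and 0.20 at the 72 edges. For the fibroblast list it was 0.45, 0.40 and 0.26 in the center and 0.18, 0.24 and 0.14 at the edge. For the macrophage list it was -0.21, -0.07 and 0.09 in the center and 0.38, 0.37 and 0.32 at the edge, and the keratinocyte list was below 0 at both locations, at -0.45, -0.34 and -0.41 in the center and -0.19, -0.27 and -0.16 at the edge. These are descriptions over samples that share animals and libraries, and which cells carried the RNA of TBX2, FAM78B and NTNG2 was not tested.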

How the data were processed

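The mRNA of 150 samples was poly-A enriched and sequenced as paired reads of 150 bases. Per the study's methods, the sequencing provider removed adapter and low-quality reads, mapped the rest and supplied gene counts. The authors deposited the counts as they were, and also FPKM, which were used to compare levels between genes and as an alternative scale. The aligner, the counting tool and the genome build are not given in the sources used here. Total counts of 13133379 to 24895572 per sample set the precision for low genes, and the limit of 3 counts holds for counting error alone.

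Groups are the days and locations of the labels, which also name animal and wound. The genes and lists were chosen with earlier results of these data known. Symbols came from the name column or the protein match in the description, 21687 in all. Counts of all 150 samples were fitted with edgeR 4.0.16 in R 4.3.3 (29 state means, TMM, filterByExpr at a count of 10 and a total of 15, tested by quasi-likelihood, Benjamini-Hochberg over 17916 genes, threshold 0.05). Each day was also fitted alone to recompute the choice of the genes. Tests per animal were exact sign-flip permutation tests. Correlations used deviations from the state mean and 100000 permutations within states (Python 3.11.15, numpy 2.4.6, scipy 1.17.1). Wounds of 1 animal are not separate animals, so p-values from the fit over samples measure the spread between samples. The main fit had no term for animal or wound, so the pairing of edge and center within a wound was not used. The named genes were, besides those above, for each gene the 5 with the highest r of state means and the 3 with the highest r of deviations, the relatives, and up to 3 abundant genes of each marker list. TGM2, GNG2 and NEK6 were named after their values were seen.

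Alternatives were DESeq2 1.42.0, its size factors in edgeR, library size alone, no filter, the animal as replicate block, summed wounds, other scales (a pseudocount of 0.5, TMM-normalized CPM, FPKM), and leaving out each animal or the 7 libraries that stood apart. The block rests on the animal named in the labels for the day 0 sample and the wounds. As a check, day 0 deviations had r between -0.01 and 0.16 with those of the same animal's wounds, the highest among animals of the same days in 4 of 6. Counts were also simulated for days 1 and 2 against day 0 (16479 genes). On these, edgeR found 47% of genes changed by a log2 of 1 and 93% of those changed by 2, with 6.67% false calls. For DESeq2 the values were 51%, 93% and 6.49%. The simulated counts had the same spread setting for all genes and no shared animals or wounds, so these rates may not hold for the real samples. Of the lists, CDKN2A, NPPA, TWIST1, KRT14, MYH1 and FABP4 were not matched by symbol. The values of 1 gene of the lists are not reported here. Protein, promoter and genomic sequences were not analysed here.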

Additional observations from a re-analysis of the deposited data

Results flagged for a closer look

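Single samples stood far from the other 5 of their state in 4 of 63 cases tested, where chance gives about 3.15. On day 3 the edge of animal 1324, wound F, had a TBX2 level of 6.325 (log2(1 + CPM), 79.2 CPM against 24.8 to 35.9 CPM) and an NTNG2 level of 2.569 (4.93 CPM against 0.761 to 1.46 CPM). The same sample had 17763 CPM over the keratinocyte genes, against 108 to 58159 CPM (median 56098 CPM) in the other 5, and 53368 CPM over the fibroblast genes, against at most 44501 CPM. The lowest of these, wound G of animal 1325, had 35.9 CPM of TBX2 and 1.46 CPM of NTNG2. On day 7 the edge of animal 1323, wound H, had a TBX2 level of 6.149 (70.0 CPM against 22.9 to 34.6 CPM), with 26551 CPM over the keratinocyte genes against 41639 to 63641 CPM in the others. On day 6 the center of animal 1328, wound B, had a FAM78B level of 3.913 (14.1 CPM against 31.5 to 38.3 CPM) and 55947 CPM over the skeletal muscle genes against at most 93.5 CPM. The part of tissue content in these values was not tested.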

How the results depend on the processing

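Of the alternatives for the change against day 0, 271 of 273 in the fit kept the direction and the call, and 210 of 210 per animal kept the direction. With an animal left out, the smallest p that the permutation of signs allows is 0.0625. No call per animal could be kept there. The animal as replicate block changed no call of the 3 genes and moved no count of called genes by over 1.5 times, for example from 11995 to 12214 genes on days 5 and 6. NTNG2 on days 1 and 2 ranged from 0.81 to 1.69 with each animal left out. The late fall of NTNG2 over days 15 to 21 did not pass with DESeq2-type size factors (-0.51) or without a filter (-0.50) and ranged from -0.60 to -0.37 with each animal left out, and that over days 19 and 21 passed with library size alone (-0.64), DESeq2 (-0.55) and without the libraries that stood apart (-0.60). That of TBX2 over days 19 and 21 ranged from -0.65 to -0.44 over the animals left out. Genes called numbered 4119 and 5652 in these 2 comparisons and fell to 1746 and 3583 without animal 1324 and, in the first, to 2622 without 1327. Library size alone moved the median of all genes on days 19 and 21 from -0.06 to -0.25, and the calls from 3999 higher and 4379 lower to 2929 and 6475. On days 15 and 16 it moved them from 4205 and 4498 to 3392 and 5539, and from days 11 and 13 to days 19 and 21 from 2556 and 3096 to 1933 and 4140. All 3 genes stayed called against day 0 there. On FPKM the difference between center and edge was 1.49 for FAM78B and 0.91 for NTNG2.

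With TMM-normalized CPM, r passed for FAM78B with COL1A1 (0.32) and LUM (0.32) in the center and COL1A1 at the edge (0.34). Without the libraries that stood apart, r was 0.24 (TBX2, COL1A1), 0.19 (TBX2, LUM), 0.25 (NTNG2, LUM) and -0.0523 (NTNG2, COL1A1) in the center, and between edge and center 0.26 for TBX2 and 0.19 for FAM78B. Leaving out each animal, or each of these libraries (added after seeing the data), r in the center ranged from 0.30 to 0.56 (TBX2, COL1A1), 0.28 to 0.48 (TBX2, LUM), 0.20 to 0.48 (FAM78B, COL1A1), 0.20 to 0.47 (FAM78B, LUM), 0.0165 to 0.42 (NTNG2, COL1A1) and 0.30 to 0.59 (NTNG2, LUM). At the edge it ranged from 0.0255 to 0.38 (TBX2, COL1A1), -0.0488 to 0.22 (TBX2, LUM) and 0.28 to 0.41 (FAM78B, COL1A1), and between edge and center from 0.24 to 0.47 (TBX2), 0.20 to 0.40 (FAM78B) and 0.13 to 0.38 (NTNG2). The difference between wounds A to F and G to L, near 0, changed sign for FAM78B with TMM-normalized CPM (0.00294), without the libraries that stood apart (0.0431) and over animals left out (-0.0644 to 0.0749), and for TBX2 over animals left out (-0.0259 to 0.11). The cause was not tested. Depth limits FAM78B and NTNG2 in day 0 skin, where 2 and 1 of 6 samples held 3 counts or fewer.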
